A study of Homo sapiens with 6 samples.

Results

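The genes examined were the ZNF genes of human chromosome 19, taken as every row of the count table whose symbol is ZNF followed only by digits and whose first listed chromosome is 19. This gave 240 of the 56303 genes in the table. Their RNA was measured in 786-O cells, a widely used line of clear cell renal carcinoma that lacks working VHL, in 3 libraries from cells given a control siRNA and 3 libraries from cells given an siRNA against NFE2L3. NFE2L3 is a transcription factor of the cap'n'collar family, and the comparison asks which transcripts change when it is lost. A time of 0 h is written on the control samples and one of 48 h on the knockdown samples, and siRNA and time therefore cannot be told apart. The genotype label of knockdown replicates 2 and 3 names NFE2L4 and NFE2L5, while the title and source of both name NFE2L3, which was followed here. The sources used here do not state which NFE2L3 siRNA was used or whether the libraries came from separate cultures. The p-values thus reflect the spread among these 6 libraries alone, and that spread may be technical.

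Zinc finger proteins of this kind bind DNA through a row of C2H2 fingers, each a short fold held by a zinc ion, with successive fingers reading successive bases. Most of those encoded on chromosome 19 also carry a KRAB domain, which recruits TRIM28 (KAP1) and through it the histone methyltransferase SETDB1 and the HP1 proteins, and so places repressive chromatin where the fingers bind. Their best known targets are transposable elements such as LINE-1, SVA and endogenous retroviruses. The family grew by tandem duplication, and its members stand in clusters of close relatives along the chromosome. In the reference transcripts, 202 of the 240 genes encoded a protein with a match to a KRAB pattern, 35 did not, and the others had no coding transcript there. The number of fingers found by pattern ran from 1 to 36, with a median of 12.

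The genes were divided into 16 blocks wherever neighbouring ZNF genes were more than 1000000 bases apart, and the blocks were lettered A to P from the tip of the short arm to the tip of the long arm. Coordinates are those of GRCh38. Block E, from 19668796 to 24129961, holds 35 ZNF genes and is the last block before the centromere on the short arm. Promoter windows of RefSeq (GRCh38.p14, 250 bases before to 50 after the annotated start, the first listed window of each gene) were matched by symbol to 207 of the 240 genes, 27 of them in block E. The windows below are shown because the ZNF genes of block E carry related starts. The first 3 belong to block E genes that rose after knockdown, ZNF93 is a block E gene that did not pass the test, ZNF616 is a gene of block O that rose, and ZNF420 is the gene with the largest fall. Capitals mark the 12-base words CTGTCACTCAGG, GTCCAATCAGGC and CCTGGCTCAGCT, found by counting which words recur in the most block E windows.
ZNF493, chr19:21396883-21397182, plus strand: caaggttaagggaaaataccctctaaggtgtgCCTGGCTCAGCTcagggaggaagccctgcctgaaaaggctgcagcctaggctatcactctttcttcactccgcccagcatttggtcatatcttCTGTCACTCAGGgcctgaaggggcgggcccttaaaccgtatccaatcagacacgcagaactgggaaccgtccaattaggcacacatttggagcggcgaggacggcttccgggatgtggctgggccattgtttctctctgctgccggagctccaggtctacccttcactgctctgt
ZNF675, chr19:23687163-23687462, minus strand: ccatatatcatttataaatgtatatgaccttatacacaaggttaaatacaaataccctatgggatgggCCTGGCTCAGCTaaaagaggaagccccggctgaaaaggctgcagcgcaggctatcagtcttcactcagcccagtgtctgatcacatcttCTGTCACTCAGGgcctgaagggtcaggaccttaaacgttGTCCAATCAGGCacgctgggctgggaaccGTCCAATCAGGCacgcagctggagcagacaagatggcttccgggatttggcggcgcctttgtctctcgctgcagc
ZNF91, chr19:23395422-23395721, minus strand: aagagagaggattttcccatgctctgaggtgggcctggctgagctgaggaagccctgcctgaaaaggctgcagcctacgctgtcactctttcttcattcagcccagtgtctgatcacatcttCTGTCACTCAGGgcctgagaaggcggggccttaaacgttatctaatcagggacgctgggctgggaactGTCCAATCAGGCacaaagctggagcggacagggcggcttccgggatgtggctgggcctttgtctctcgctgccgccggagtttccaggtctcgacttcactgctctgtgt
ZNF93, chr19:19900696-19900995, plus strand: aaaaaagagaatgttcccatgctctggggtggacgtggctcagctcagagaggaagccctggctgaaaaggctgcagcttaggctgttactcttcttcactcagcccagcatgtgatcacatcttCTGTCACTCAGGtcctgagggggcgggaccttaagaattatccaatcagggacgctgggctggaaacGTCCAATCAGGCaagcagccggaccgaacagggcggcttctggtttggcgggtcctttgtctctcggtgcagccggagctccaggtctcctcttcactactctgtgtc
ZNF616, chr19:52139889-52140188, minus strand: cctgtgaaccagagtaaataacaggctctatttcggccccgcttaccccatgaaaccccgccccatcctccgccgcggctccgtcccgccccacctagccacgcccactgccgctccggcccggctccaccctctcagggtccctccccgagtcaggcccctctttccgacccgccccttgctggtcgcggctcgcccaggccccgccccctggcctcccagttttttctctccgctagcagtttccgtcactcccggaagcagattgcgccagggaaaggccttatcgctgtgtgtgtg
ZNF420, chr19:37078183-37078482, plus strand: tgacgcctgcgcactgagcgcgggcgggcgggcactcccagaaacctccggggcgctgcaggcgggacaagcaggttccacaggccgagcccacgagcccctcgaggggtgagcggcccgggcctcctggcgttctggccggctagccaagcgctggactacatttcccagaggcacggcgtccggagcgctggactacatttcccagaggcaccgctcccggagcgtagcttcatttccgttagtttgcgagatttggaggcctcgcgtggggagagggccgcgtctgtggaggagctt
In the word GTCCAATCAGGC the letters CCAAT are a CCAAT box, a common promoter element bound by the factor NF-Y. On either strand, the word CTGTCACTCAGG stood in 18 of 27 block E windows, in 5 of the 180 windows of the other genes, all 5 in block C, and in 0.136% of all 27305 RefSeq windows. GTCCAATCAGGC stood in 17 of 27 block E windows, in 1 of the 180 others and in 0.11% of all windows, and CCTGGCTCAGCT in 14, 0 and 0.0842%. The words were picked for being frequent in block E, so their share there is a description of the shared starts and no finding. ZNF616 and ZNF420 held none of the 3 words.

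The libraries held between 51828446 and 57391929 counts each, and 99.9% of them fell on the 19916 genes with enough counts to be tested. The biological coefficient of variation between replicates was 4.76%, and replicate libraries differed by more than sampling noise in every pair. Even numbers made up 67.6% to 69.9% of the counts from 1 to 29, so low counts may rest on fewer fragments than they show. NFE2L3 itself was at 116.3, 112.5 and 115.3 CPM (counts scaled to 1000000 per library, with library sizes adjusted by the trimmed mean of M-values, TMM) in the control libraries and at 19.5, 19.1 and 20.8 CPM after knockdown. The log2 fold change of NFE2L3 was -2.54, with a standard error of 0.0482 (adjusted p = 3.98e-22, edgeR quasi-likelihood test with Benjamini-Hochberg adjustment over all genes tested), and a two-sided exact permutation test over the 6 libraries gave p = 0.1, the smallest that this design allows. Of the renal markers, PAX8, EPAS1, VIM and VEGFA had means between 216.9 and 2540 CPM, ANGPTL4, LHX1, CDH6 and PAX2 averaged 43.3, 12.4, 9.26 and 7.15 CPM over the 6 libraries, NDUFA4L2 was low at 0.685 CPM, and CA9 was near 0 (0.0178 CPM in control and 0.0615 CPM in knockdown libraries). Markers of leukocytes, endothelium, liver and squamous epithelium were at 1.51 CPM or less. In bulk RNA, a change in the number of cells that express a gene and a change in RNA per cell cannot be told apart.

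ZNF transcripts of chromosome 19 were mostly scarce. Their median level over all 240 genes was 0.922 RPKM (CPM per kilobase of exon), and 38 genes averaged under 1 CPM. Enough counts for a test were found in 217 genes. The other 23 had at most 16 counts in any library, and 6 of them lie in block E. ZNF729, a block E gene, had no count in any library, which allows a level of up to 0.0519 to 0.0584 CPM per library (3 counts, counting error only).
The level per length was highest in ZNF146, which encodes a protein made almost wholly of fingers without a KRAB domain. It was at 189.3, 178.8 and 171.2 CPM in the control libraries and at 204.3, 198.7 and 204.4 CPM in the knockdown libraries. At 46.1 RPKM over the 6 libraries it stood well above ZNF83 (10.2 RPKM), ZNF699 (9.51 RPKM), ZNF121 (7.34 RPKM) and ZNF841 (7.0 RPKM), the next in order. ZNF146 rose in every knockdown library by a small amount (log2 fold change 0.17, standard error 0.0418, adjusted p = 0.00302, edgeR). ZNF83 rose from 73.2 ± 6.5 to 90.1 ± 1.03 CPM (SD, n = 3 each). ZNF699 did not pass the test, with 35.9 ± 0.922 CPM in control and 33.0 ± 2.61 CPM in knockdown libraries (SD, n = 3 each, log2 fold change -0.12, adjusted p = 0.122, edgeR), but was called lower without knockdown replicate 1 (log2 fold change -0.19).

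After NFE2L3 knockdown, more ZNF genes of chromosome 19 rose than fell. At an adjusted p under 0.05, 60 of the 217 tested genes were higher, where 12.7% of all genes tested were higher, and 8 were lower, where 14% of all genes tested were lower. The median log2 fold change of the 217 genes was 0.115, against -0.001 over all 19916 genes tested, and 149 of the 217 values were positive. Most of these shifts were small. At least 1.5-fold rises numbered 12 among the 60, and 0 reached 2-fold. The share of all genes tested at 1.5-fold was not counted, so the 12 describes only the size of these rises. With the cutoffs that the study's methods name, an unadjusted p under 0.05 and a fold of at least 2, 0 of the 217 genes were higher, where 0.723% of all genes tested were, and 1 was lower, where 0.377% were. That gene was ZNF837, which is outside the rule for named genes and was singled out after its values were seen. It had 14, 12 and 16 counts in control and 6, 6 and 8 in knockdown libraries (log2 fold change -1.03, adjusted p = 0.115, edgeR). In 77 of the 217 genes all 3 knockdown libraries lay above all 3 control libraries, against 19.1% of all genes tested, and in 19 they lay below, against 20.4%. Other ZNF genes leaned the same way. Of 207 tested ZNF genes on other chromosomes, 52 (25.1%) were higher and 19 (9.18%) lower, with a median of 0.055. Among the ZNF genes of chromosome 19 the shares were 27.65% and 3.69%. Outside block E they were 20.7% and 4.26%, with a median of 0.075. Of 1150 other tested genes of chromosome 19, 112 (9.74%) were higher and 124 (10.8%) lower, with a median of -0.001.

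**Figure D1:**
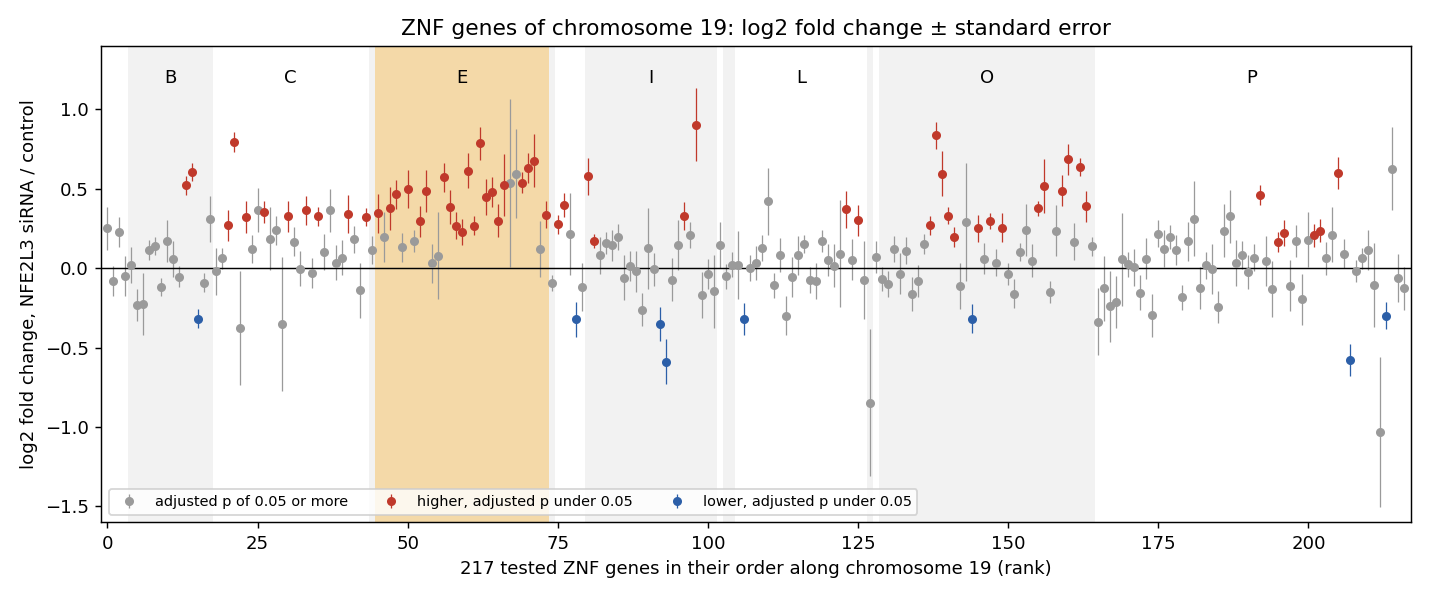
Log2 fold change (y axis, NFE2L3 siRNA over control siRNA, n = 3 libraries each) of the 217 tested ZNF genes in their order along chromosome 19 (x axis, rank). Points are edgeR estimates with standard errors, red where higher and blue where lower at an adjusted p under 0.05 and grey otherwise. Shading separates the blocks, those with 10 or more tested genes carry their letter, and the orange band is block E, in which all 29 points lie above 0.

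The block beside the centromere stood out along the chromosome. Of the 29 tested ZNF genes in block E, 21 were higher and 0 lower at an adjusted p under 0.05, and all 29 had a positive log2 fold change, from 0.03 to 0.79 with a median of 0.385. The share of genes higher, 72.4%, compares with 12.7% over all genes tested and with 39 of 188, or 20.7%, among the ZNF genes outside the block. The block was picked out after the values were seen, and the difference between it and the others was not tested. The other annotated genes that lie inside the same stretch were mostly lowly expressed. Of 30 tested, 4 were higher and 0 lower, with a median of 0.085.
ZNF493, a KRAB gene with 18 fingers, had the largest rise of the block. It was at 4.85, 4.43 and 3.75 CPM in the control libraries and at 7.21, 7.35 and 7.88 CPM in the knockdown libraries. The log2 fold change of 0.79 had a standard error of 0.104 (adjusted p = 2.46e-06, edgeR). The groups did not overlap.
ZNF91 is one of the largest proteins of the family, with 31 fingers found here, and is known for silencing SVA elements. It was the most significant gene of the block, at 14, 14 and 12.8 CPM in the control libraries and at 19.4, 19.1 and 20.7 CPM in the knockdown libraries (log2 fold change 0.54, standard error 0.0650, adjusted p = 6.77e-07, edgeR). Every knockdown library lay above every control library. ZNF93, which silences LINE-1 elements, lies in the same block and did not pass the test, at 5.96, 6.30 and 6.92 CPM in control and 7.10, 7.08 and 6.83 CPM in knockdown libraries (log2 fold change 0.13, adjusted p = 0.314, edgeR).
ZNF675, which is known as an inhibitor of TRAF6 signalling, was at 5.52, 5.83 and 4.86 CPM in control and at 7.95, 9.0 and 8.20 CPM in knockdown libraries, with a log2 fold change of 0.63. ZNF681 (0.68), ZNF708 (0.61) and ZNF85 (0.57) also rose without overlap between the groups. ZNF85 went from 5.43 ± 0.182 to 8.07 ± 0.367 CPM (SD, n = 3 each). ZNF738, at 5.20 RPKM the highest of the block per length, rose from 18.5 ± 0.527 to 22.2 ± 1.15 CPM (SD, n = 3 each, log2 fold change 0.27). The rises of ZNF43 (0.30) and ZNF257 (0.52) were close to the threshold. ZNF43 was at an adjusted p of 0.0339 and was not called without knockdown replicate 3 (0.20), nor without control replicate 1 (0.29), 2 (0.31) or 3 (0.29). ZNF257 was at an adjusted p of 0.0471 and was not called when any library other than control replicate 1 was left out (0.47 to 0.56), nor with DESeq2 (0.53), limma-voom (0.53), no filter on low counts (0.52), unscaled library sizes (0.51) or the replicate number as a block (0.52). The 8 tested genes of the block that were not called included ZNF90, ZNF14 and ZNF626, at log2 fold changes of 0.17, 0.20 and 0.03. ZNF724P, a zinc finger gene of the same stretch that the naming rule leaves out, rose as well, from 5.82 ± 0.333 to 9.46 ± 0.812 CPM (SD, n = 3 each, log2 fold change 0.70, adjusted p = 1.73e-06, edgeR).
Summed over the 35 genes of block E, the level was 160.6, 158.1 and 148.2 CPM in the control libraries and 198.8, 206.2 and 201.5 CPM in the knockdown libraries, 1.3 times as high on average. Over the 205 genes outside the block it was 1790, 1761 and 1676 CPM in control and 1944, 1942 and 1944 CPM in knockdown libraries, 1.12 times as high. Control replicate 3 was the lowest library in each of these sums. Without it, 13 genes of block E in place of 21 were higher, and 10.02% of all genes in place of 12.7%. The sum over the 237 ZNF genes on other chromosomes was 1.07 times as high.

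**Figure D2:**
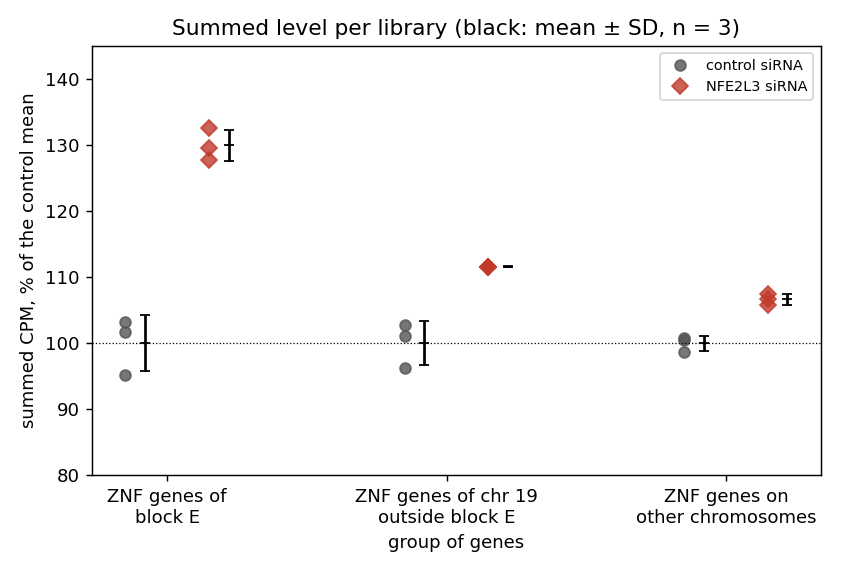
Summed CPM per library (y axis, percent of the mean of the 3 control libraries) for the ZNF genes of block E, the ZNF genes of chromosome 19 outside it, and the ZNF genes on other chromosomes. Grey circles are control and red diamonds knockdown libraries, and black bars show mean ± SD (n = 3). The knockdown libraries lie above the control libraries in each group, by the largest ratio, 1.3, in block E.

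The genes of block E are close relatives, and parts of their transcripts are similar. The sources used here do not state whether reads that fit more than 1 place were counted, so the split of reads among these relatives is uncertain. Of the 35 genes, 20 share no annotated exon bases with another gene, and of the 16 of these that were tested, 13 were higher and 0 lower, with a median of 0.442. Block E genes also had the lowest GC content of the larger blocks, with a median of 37.2% against 42.8% for the tested ZNF genes outside the block. Across the 216 tested genes with a GC value, Spearman's rho between GC content and log2 fold change was -0.422, and across the 187 outside block E it was -0.281. These are correlations across genes of the same libraries, and genes are not independent replicates. Across all 14962 tested genes with a value it was 0.055. Of the 72 ZNF genes with the lowest GC content, 33.9% to 40.7%, 35 were higher and 1 lower, and of the 72 with the highest, 44% to 70.9%, 6 were higher and 4 lower. With the trends of length and GC content removed in each library, an alternative added once results were known and fitted over the 14962 genes with a GC value, 20 of the 29 genes of block E and 70 of 216 ZNF genes of chromosome 19 were higher, and 10 were lower. In that fit 14.85% of all genes were higher and 17.85% lower. The trend removed is the one shared by all genes, so the fit need not take out the relation within the ZNF genes.

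**Figure D3:**
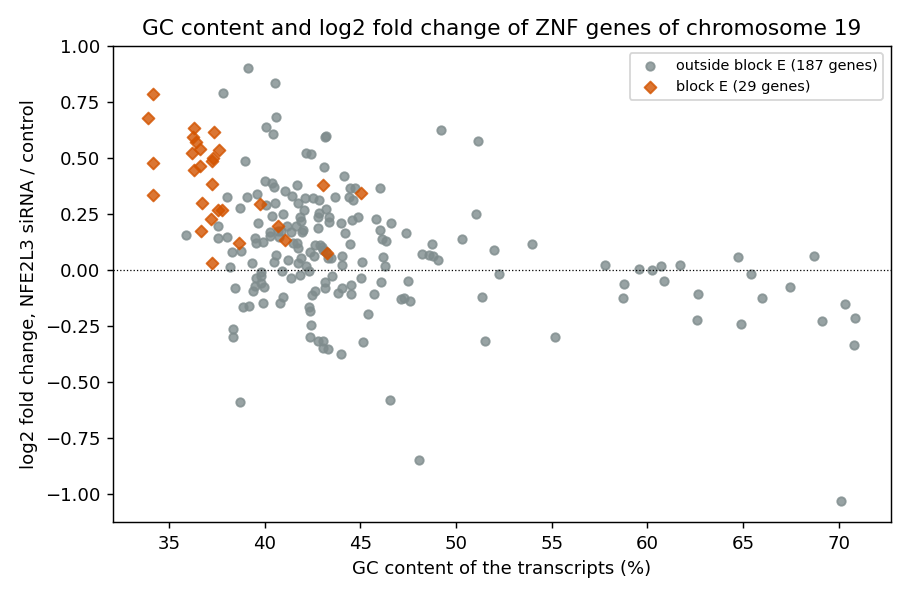
GC content of the reference transcripts (x axis, percent) and log2 fold change (y axis, NFE2L3 siRNA over control siRNA) of the 216 tested ZNF genes of chromosome 19 with a GC value, 1 point per gene. Orange diamonds are the 29 genes of block E, most of which lie at low GC content and above 0, and grey circles the 187 others.

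Outside block E, the rises gathered in blocks C and O. In block C, from 11483427 to 12640098 on the short arm, 9 of 26 tested genes were higher and 0 lower, with a median of 0.184. The other 22 tested genes of that stretch had a nearly equal median of 0.177, with 2 higher and 1 lower. Several of these share exon bases on the same strand with ZNF genes of the block, so the medians may not be independent. Among them are CTD-2192J16.17 (4360 bases with ZNF709) and ZNF625-ZNF20 (2212 with ZNF20). ZNF441, a KRAB gene with 14 fingers, led this block at 16.3, 15.4 and 14.6 CPM in control and 25.4, 28.2 and 26.5 CPM in knockdown libraries (log2 fold change 0.79, standard error 0.0623, adjusted p = 7.21e-10, edgeR). Its knockdown libraries were all above its control libraries by a wide margin. ZNF791 (log2 fold change 0.32) and ZNF44 (0.33) rose less, ZNF44 from 17.5 ± 0.850 to 21.9 ± 0.638 CPM (SD, n = 3 each).
In block O, from 51571298 to 53580269 on the long arm, 14 of 36 tested genes were higher and 1 lower, with a median of 0.160. ZNF616 was at 10.2, 7.83 and 8.05 CPM in control and 16.5, 14.8 and 15.3 CPM in knockdown libraries (log2 fold change 0.84, standard error 0.0867, adjusted p = 6.57e-08, edgeR), and the groups stood apart. ZNF761 was at 15.5, 15.9 and 15.5 CPM in control and 23.7, 24.8 and 24.4 CPM in knockdown libraries, a log2 fold change of 0.64. ZNF845, with 26 fingers, had a log2 fold change of 0.69 and ZNF836, with 24, of 0.59. ZNF616 shares 41 and ZNF836 554 exon bases with CTC-471J1.8 on the same strand, which was itself at a log2 fold change of 0.91, so the value of ZNF836 in particular is uncertain.
In the other large blocks the shares of genes higher were nearer to the 12.7% of all genes tested. In block P, at the end of the long arm from 55476332 to 58481230, 6 of 52 tested genes (11.5%) were higher and 2 lower (median 0.052). ZNF606 had a log2 fold change of 0.60 and ZNF550 of 0.46, the latter from 21.9 ± 2.29 to 30.2 ± 0.296 CPM (SD, n = 3 each). ZNF606 shares 790 exon bases with CTD-2368P22.1 on the opposite strand (log2 fold change 0.36), and the sources used here do not state whether the counting used strand. In block I, 4 of 22 (18.2%) were higher and 2 lower (median 0.048), in block L, 2 of 22 (9.09%) higher and 1 lower (0.042), and in block B, 2 of 14 (14.3%) higher and 1 lower (0.039).
ZNF121 of block B was the most abundant gene among the large rises, at 45.2, 43.4 and 38.0 CPM in control and 67.4, 63.5 and 61.7 CPM in knockdown libraries (log2 fold change 0.61, standard error 0.0555, adjusted p = 8.98e-09, edgeR). Its neighbour ZNF426 rose by 0.52, while ZNF561, its neighbour on the other side, fell by 0.32. The gene with the largest fold among the rises, ZNF793 of block I, rests on few counts. It was at 0.961, 1.09 and 0.720 CPM in control and 1.18, 2.13 and 1.89 CPM in knockdown libraries (log2 fold change 0.90, standard error 0.228). ZNF565, also of block I, had a log2 fold change of 0.58 at 3.48 CPM and shares 446 exon bases on the opposite strand with ZNF146, which is far more abundant. In block H, ZNF181 (0.40) and ZNF302 (0.28) rose, and in block L, ZNF112 (0.37), which was not called without knockdown replicate 2 (0.23), control replicate 1 (0.32) or control replicate 3 (0.36) and shares 462 exon bases with CTC-512J12.6 on the same strand (0.56).

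**Figure D4:**
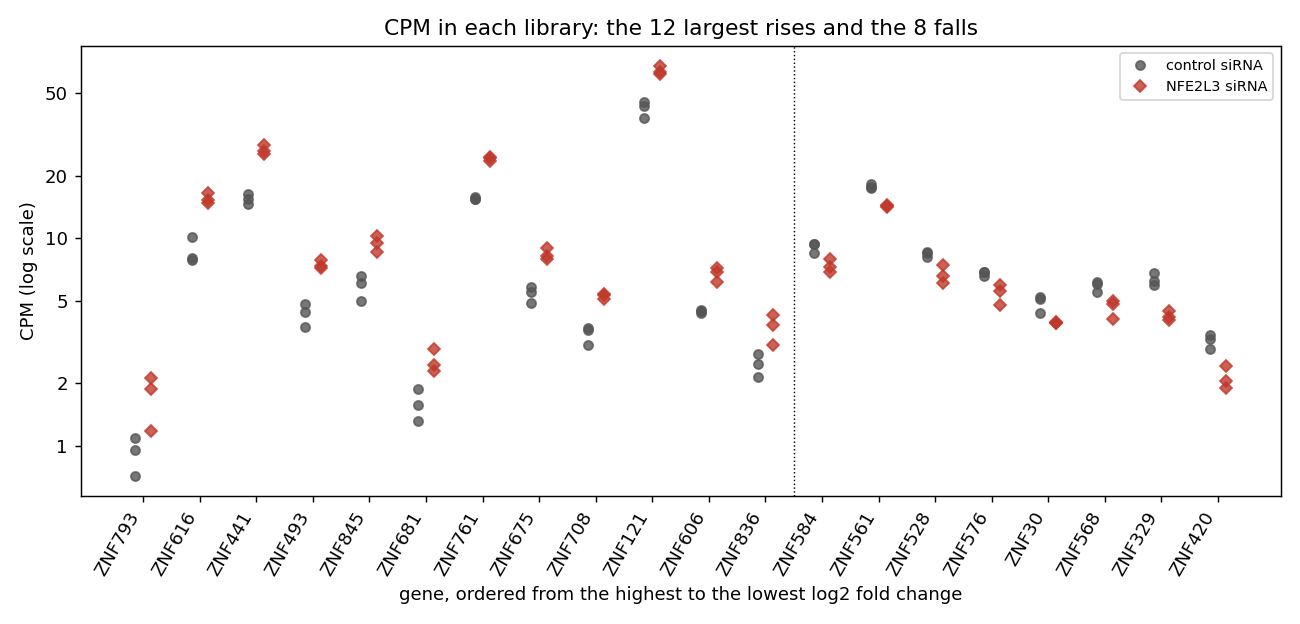
CPM in each library (y axis, log scale) of the 12 ZNF genes of chromosome 19 with the largest rises among those averaging 1 CPM or more with groups that do not overlap, left of the dotted line, and of the 8 that fell, right of it. Grey circles are the 3 control and red diamonds the 3 knockdown libraries, which do not overlap in any of the 20 genes.

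The 8 genes that fell lay in blocks B, H, I, L, O and P and none in block E. ZNF420, a KRAB gene with 19 fingers that is known as a negative regulator of p53, had the largest fall, at 3.26, 3.42 and 2.92 CPM in control and 1.90, 2.06 and 2.43 CPM in knockdown libraries (log2 fold change -0.59, standard error 0.142, adjusted p = 0.00275, edgeR). It shares 154 exon bases with CTC-454I21.4 and 153 with CTD-2293H3.2, both on the opposite strand. CTD-2293H3.2 was at a log2 fold change of -1.06 on 0.47 CPM, and CTC-454I21.4 was not tested. ZNF329, which had no match to the KRAB pattern, was at 6.22, 6.78 and 5.94 CPM in control and 4.03, 4.47 and 4.18 CPM in knockdown libraries (log2 fold change -0.58, standard error 0.102, adjusted p = 1.07e-04, edgeR). ZNF561 was the most abundant of them and went from 17.8 ± 0.410 to 14.3 ± 0.148 CPM (SD, n = 3 each, log2 fold change -0.32). In each of the 8 genes every knockdown library was below every control library.
ZNF576 shares 227 exon bases with SRRM5 on the same strand, which was at 15.7 CPM.
Several of the smaller falls lost their call in a fit that left out a library. ZNF568 (-0.35) was not called without knockdown replicate 2 (-0.27) or control replicate 2 (-0.32), ZNF576 (-0.32) without knockdown replicate 2 (-0.23), and ZNF528 (-0.32) and ZNF584 (-0.30) without knockdown replicate 1 (-0.25 and -0.25). ZNF30 (-0.32) was not called with DESeq2 (-0.32) or when any library other than control replicate 2 was left out (-0.27 to -0.33). Without knockdown replicate 2, 5 genes in place of 8 were lower, and 11.1% of all genes in place of 14%.
Among the 20 most abundant ZNF genes of chromosome 19, the smallest differences were those of ZNF266, ZNF507 and ZNF320. ZNF266 was at 23.8, 23.4 and 20.2 CPM in control and 21.0, 21.1 and 22.9 CPM in knockdown libraries, and its groups overlapped (log2 fold change -0.05, standard error 0.0652, adjusted p = 0.612, edgeR). ZNF507 was at -0.10 and ZNF320 at 0.10. In the small blocks ZNF57 (0.23) and ZNF554 (0.25) of block A, ZNF333 (0.11) of D, ZNF546 (0.15) of J, ZNF574 (-0.05) and ZNF526 (0.02) of K, ZNF114 (-0.85, on 0.290 CPM) of M and ZNF473 (0.07) of N did not pass the test. ZNF473 encodes a factor in the 3′ end processing of histone mRNAs.

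By the kind of protein, 56 of 185 tested genes with a KRAB match (30.3%) were higher and 6 lower (median 0.144), and of 31 without one, 4 (12.9%) were higher and 2 lower (median -0.050), beside 12.7% higher and 14% lower over all genes tested. The difference between the classes was not tested. Outside block E the KRAB genes had 35 higher and 6 lower of 156 (median 0.112). The genes without a match also differed in base composition, with a median GC content of 60.7% against 42.0%, and KRAB and GC content were not separated here. By the number of fingers, 9 of 45 genes with under 9 fingers were higher (median 0.024), as were 32 of 107 with 9 to 14 (0.122) and 19 of 64 with 15 or more (0.151). By level, 6 of the 54 genes of lowest RPKM were higher and 22 of the 55 of highest RPKM, where more counts make a small shift easier to call, and the medians were 0.055 and 0.168.
Of 29 genes on the chromosome set aside for a known role, 26 were tested, with a median of 0.126. Among these, 7 (26.9%) were higher and 1 (3.85%) lower. The shares were close to the 27.65% and 3.69% of all tested ZNF genes of the chromosome, beside 12.7% and 14% over all genes tested. Besides ZNF91, ZNF675, ZNF85, ZNF44, ZNF43, ZNF257 and ZNF146, which rose, and ZNF576, which fell, the list held ZNF274, a KRAB protein that binds the 3′ ends of zinc finger genes and recruits SETDB1 to them. ZNF274 was at 17.3, 15.6 and 15 CPM in control and 15.6, 16.2 and 15.5 CPM in knockdown libraries, with overlapping groups (log2 fold change -0.02, standard error 0.0673, adjusted p = 0.890, edgeR). ZNF331, an imprinted gene, was at 28.2 CPM on average in control and 31.0 CPM in knockdown libraries (log2 fold change 0.14, adjusted p = 0.0901, edgeR).

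The partners through which KRAB proteins act moved both ways. Of 44 tested genes of the corepressor and heterochromatin list, 13 (29.5%) were higher and 9 (20.5%) lower, against 12.7% and 14% of all genes tested. The log2 fold changes of the list ran from -0.29 to 0.43, with a median of 0.010. TRIM28, the corepressor that binds the KRAB domain, was at 32.0, 31.7 and 34.6 CPM in control and 31.5, 31.2 and 33.9 CPM in knockdown libraries (log2 fold change -0.03, standard error 0.0543, adjusted p = 0.768, edgeR). The groups overlapped. SETDB1, which methylates histone H3 at lysine 9, was at 34.4, 33.5 and 34.5 CPM in control and 32.8, 31.5 and 29 CPM in knockdown libraries (log2 fold change -0.13, adjusted p = 0.0679), and was called lower without knockdown replicate 1 (-0.17).
The HP1 proteins, which bind the methylated histone, did not move together. CBX5 (HP1α) fell from 230.5 ± 7.19 to 189.2 ± 1.61 CPM (SD, n = 3 each) and CBX3 (HP1γ) by 0.24 on the log2 scale, whereas CBX1 (HP1β) rose by 0.16. Genes of the NuRD deacetylase complex went both ways. MTA1 (log2 fold change 0.32), HDAC2 (0.21), HDAC1 (0.20), GATAD2A (0.17) and CHD3 (0.15) rose, while MTA2 (-0.21), MTA3 (-0.21) and RBBP4 (-0.16) fell. CHD4, GATAD2B, MBD2, MBD3 and RBBP7 were not called. ATRX, a remodeller of heterochromatin, also rose. It was at 343.4, 341.4 and 269.9 CPM in control and 408.3, 437.4 and 444.9 CPM in knockdown libraries (log2 fold change 0.43). Of the genes for histone H3.3, H3F3B fell (-0.21) and H3F3A rose (0.21).

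Zinc finger genes of chromosome 19 that the naming rule leaves out numbered 43, with 25 tested. Their median was 0.115, equal to that of the genes in the rule. Only 1 (4%), ZNF724P, was higher and 2 (8%) were lower, beside 12.7% and 14% over all genes tested. ZFP36, whose protein has fingers of another type and promotes mRNA decay, fell by 0.33 and was not called without control replicate 3 (-0.27). ZBTB7A, a BTB-domain repressor, was at -0.15 and was not called with upper quartile scaling (-0.13) or without knockdown replicate 1 (-0.15), knockdown replicate 2 (-0.14) or control replicate 1 (-0.13). Among ZNF genes on other chromosomes, ZNF267 (log2 fold change 0.96), ZNF721 (0.79) and ZNF664 (0.69) had the smallest adjusted p-values. ZNF664 went from 99.8 ± 1.69 to 161.1 ± 0.570 CPM (SD, n = 3 each). On chromosome 7, which holds the next largest group, 10 of 27 tested ZNF genes (37%) were higher and 2 (7.41%) lower (median 0.050).

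NFE2L3 belongs to a family that binds antioxidant response elements, whose core is written TGACNNNGC. On either strand this core stood in 31 of the 207 promoter windows of the chromosome 19 ZNF genes, 15%, and in 13.6% of all windows of the same length. It was in 8 of 54 windows of genes that rose, 0 of 7 of genes that fell and 19 of 129 of genes not called, and in 2 of 27 in block E. Among the tested genes with a window, the median log2 fold change was 0.081 for the 27 that held the core and 0.120 for the 163 that did not. The study itself mapped tagged NFE2L3 on chromatin of 786-O cells by immunoprecipitation and sequencing. It gives GTCACWCT, with W for any base, as the common sequence for binding at LASP1. That sequence and those binding data were not examined here, and the core alone does not show where NFE2L3 binds.
Within block E, the genes with the word CTGTCACTCAGG had a median of 0.468 (11 of 16 higher) and those without it 0.345 (7 of 9 higher). For GTCCAATCAGGC the order was the other way, with 0.337 (11 of 15 higher) with the word and 0.474 (7 of 10 higher) without it, and for CCTGGCTCAGCT the medians were 0.449 (11 of 13 higher) and 0.322 (7 of 12 higher). Outside block E, 5 tested genes held the first of these words, all in block C, with 3 higher, 0 lower and a median of 0.327. Of the 160 without it, in all blocks but E, 33 were higher and 7 lower (median 0.065). The difference was not tested. ZNF844, ZNF625 and ZNF709 were higher (0.33, 0.37 and 0.34). ZNF491 and ZNF878, at -0.38 and -0.35, did not pass the test. They were scarce (0.3938 and 0.296 CPM), and standard errors of 0.3597 and 0.4234 leave their direction open. The block C genes were named after their values were seen.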

How the data were processed

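RNA of 6 libraries (3 control siRNA, 3 NFE2L3 siRNA) was analysed from the raw counts deposited by the authors. As the methods and the submitters' processing notes state, reads were first trimmed by the authors (Trimmomatic 0.36), who then merged reads of the same molecular identifier, aligned them with STAR 2.5.3a to the genome of Ensembl release 87 and counted reads in exons with featureCounts (Subread 1.5.1). The deposited table gives 1 count per gene and library. Its exon lengths gave RPKM. The authors tested with edgeR 3.12.1.

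Samples were grouped by title. The members and gene lists were chosen with earlier results of these data known. Genes passing filterByExpr (minimum count 10) were scaled by TMM, and edgeR 4.0.16 in R 4.3.3 was used for the quasi-likelihood test, with no term for replicate number. The p-values were adjusted by the Benjamini-Hochberg method across the 19916 genes tested. Alternatives used DESeq2 1.42.0, limma 3.58.1 and the other settings given in the closing section. The procedure was tested on simulated counts. Fingers, KRAB matches and GC content came from translated transcripts of GENCODE, lifted to another build and used for sequence only, in Python 3.11.15.

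Genes were named by rule: the 12 largest rises and the falls (at most 12) with an adjusted p under 0.05, a mean of 1 CPM or more and groups that did not overlap, the 5 of highest RPKM, up to 8 with a known role, 2 per block and 3 of smallest difference, with fixed numbers of partners and other zinc finger genes. Other block E genes, ZNF837, CBX1, H3F3A, the NuRD genes besides MTA1 and HDAC2, ZNF274, ZNF331 and the block C genes beside the promoter words were named after their values were seen.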

Additional observations from a re-analysis of the deposited data

How the results depend on the processing

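Across the 13 other settings and the 6 fits that left out a library, the median log2 fold change of the chromosome 19 ZNF genes stayed positive, from 0.103 with unscaled library sizes to 0.142 without members that share exon bases. Higher genes numbered 60 in the reported fit and from 51 (DESeq2) to 72 (upper quartile scaling) under the settings that kept all members and libraries. Over all genes, 12.7% were higher in the reported fit, 11.97% with DESeq2 and 14.57% with upper quartile scaling. With the members that share exon bases left out, fewer genes entered, and 31 were higher and 5 lower, 13 of the higher ones in block E. Leaving out 1 library gave 41 to 55 higher genes, 5 to 8 lower genes, 13 to 19 higher genes in block E and medians of 0.109 to 0.136. In the same 6 fits, 9.62% to 12.85% of all genes were higher and 10.81% to 14.18% lower. The fewest lower genes came without knockdown replicate 2, and the fewest higher genes of block E, 13, without control replicate 3; the cause was not tested. Replicate numbers did not pair the libraries, since the deviations of same-numbered libraries correlated at -0.0121, -0.0159 and -0.0195. With a replicate block, 55 genes were higher and 8 lower, 18 higher in block E, with a median of 0.117. In that fit 11.44% of all genes were higher and 12.57% lower. The call of ZNF257 was lost there (0.52). Values near 0 changed sign with a library left out for ZNF526 (-0.011 to 0.070), ZNF473 (-0.037 to 0.145) and TRIM28 (-0.065 to 0.013). Of 62 named genes, 10 lost and 3 gained a call under at least 1 alternative. Depth limits the 23 untested genes, and a change of these was not detectable.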
